A study of Mus musculus with 2 samples.

Results

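The genes described here are 8 that mark bile duct cells and liver progenitor cells or direct their formation: the transcription factors Sox9, Sox4 and Onecut2, the secreted glycoprotein gene Spp1, the surface protein genes Prom1 and Cd24a, the receptor gene Notch2 and the ligand gene Jag1. They were found by gene symbol in the deposited expression table, where each of the 8 has 1 of the 21145 rows. The cells were AML12, a nontumorigenic mouse hepatocyte line at passages 14 to 16 whose strain is labelled CD1/MT42, a line of mice that carry a transgene for human transforming growth factor alpha. A control line had been infected with the lentivirus Lv-NC and an H19 line with Lv-H19, which expresses the long noncoding RNA H19, and both had been selected with 0.5 mg/ml and kept in 0.25 mg/ml puromycin, in medium with 10% serum. AML12 is grown, per the labels, with insulin, transferrin, selenite and 40 ng/ml dexamethasone. The library titled Over19 was taken as that of the H19 line and the library titled Ctrl as that of the control line. There was 1 library per line, so no value has a replicate error and no test was run. The labels do not say whether a line came from a single clone.

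SOX9 is the factor most used to mark bile duct cells in the liver, and it also appears in hepatocytes that take on bile duct features after injury. In the developing liver, Jagged1 on cells around the portal vein activates Notch2 on neighbouring hepatoblasts, and the cut receptor enters the nucleus, where it acts with the DNA-binding factor RBPJ to switch on Hes and Hey genes and Sox9. The series title joins Sox9 and H19 in hepatocyte death and liver fibrosis, and the comparison asks how these genes stood in cells given more H19.

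Promoter windows of 300 bases, from 250 before to 50 after an annotated start, were found in RefSeq (GRCm38.p6) for 5 of the 8 genes: Sox4, Spp1, Prom1, Notch2 and Jag1. The windows shown are that of Spp1, which had the largest difference in level between the libraries among the measured members, and those of Jag1 and Sox4, which hold a match to a motif of a SOX or a Notch pathway factor. The first Prom1 window also holds such a match but is not shown. Capitals mark matches to the motifs searched, on either strand.
Spp1 (chr5:104434861-104435160, plus strand): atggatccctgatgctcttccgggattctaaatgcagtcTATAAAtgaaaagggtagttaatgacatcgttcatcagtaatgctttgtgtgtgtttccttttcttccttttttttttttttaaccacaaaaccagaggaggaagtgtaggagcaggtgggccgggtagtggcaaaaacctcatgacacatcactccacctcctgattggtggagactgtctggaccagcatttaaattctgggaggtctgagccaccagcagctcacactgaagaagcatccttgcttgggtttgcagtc
Jag1 (chr2:137116471-137116770, minus strand): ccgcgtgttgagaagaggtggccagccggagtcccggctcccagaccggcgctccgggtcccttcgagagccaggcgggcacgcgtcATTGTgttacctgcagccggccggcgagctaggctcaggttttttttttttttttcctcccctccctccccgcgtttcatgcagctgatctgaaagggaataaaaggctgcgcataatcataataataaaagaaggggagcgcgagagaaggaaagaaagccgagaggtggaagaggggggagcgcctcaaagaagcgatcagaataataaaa
Sox4 (chr13:28953650-28953949, minus strand): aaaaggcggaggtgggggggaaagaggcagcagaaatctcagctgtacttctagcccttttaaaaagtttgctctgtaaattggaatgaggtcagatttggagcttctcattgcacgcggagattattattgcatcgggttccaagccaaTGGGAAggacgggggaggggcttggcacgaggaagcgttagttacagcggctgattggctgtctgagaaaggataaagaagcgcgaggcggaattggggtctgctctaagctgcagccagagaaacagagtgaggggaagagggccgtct
The motifs were ACAAT, the core letters bound by SOX factors, ACAATGG, which contains that core, ACAAT followed after 4 bases by its reverse complement, TGGGAA, bound by RBPJ, ATCAAT, bound by ONECUT factors, and TATAAA, the TATA box. The Jag1 window held ACAAT once, on the opposite strand at 163 bases before the start, and 31.0% of all 32851 windows hold it. The Sox4 window held TGGGAA at 100 bases before the start, and the first Prom1 window held it on the opposite strand, against 25.6% of all windows. The capitals in the Spp1 window are TATAAA at 211 bases before the start, which 13.6% of windows hold. The second Spp1 and Prom1 windows and the Notch2 window held none of these letters, and no window of the 5 genes held ACAATGG (3.66% of all windows), the paired core (0.0274%) or ATCAAT (7.54%). Of the first windows, that of Notch2 was the richest in G and C at 73.0% and that of Spp1 the poorest at 45.3%, beside a median of 52.7% over all windows. A match describes letters in the window and is not a binding site shown in these cells.

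Levels are in FPKM, fragments scaled by transcript length and by the size of the library, with the control library first. The log2 difference is log2(FPKM + 1) in the H19 library minus that in the control library, which understates differences of low genes. A gene was called measured when the mean of its 2 FPKM values reached 1, which held for 11674 genes and for 7 of the 8, all but Prom1. Of the 7, 6 were lower and Sox9 was higher in the H19 library, also with the median difference of all genes set to 0, with TPM and with the upper quartiles made equal. Lower values by any amount were seen for 41.1% of measured genes, or 54.1% with equal upper quartiles, a scaling that moved the median difference of all measured genes from 0.08 to -0.03. The median log2 difference of the 7 was -0.36. None of the 7 was at least 2-fold different, which 2.71% of measured genes were, 1.14% higher and 1.57% lower. That was 133 genes higher and 183 lower, against 84 and 270 with equal upper quartiles and 90 and 238 with the median at 0. H19 itself was listed at 0 and at 4.72 FPKM.

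**Figure D1:**
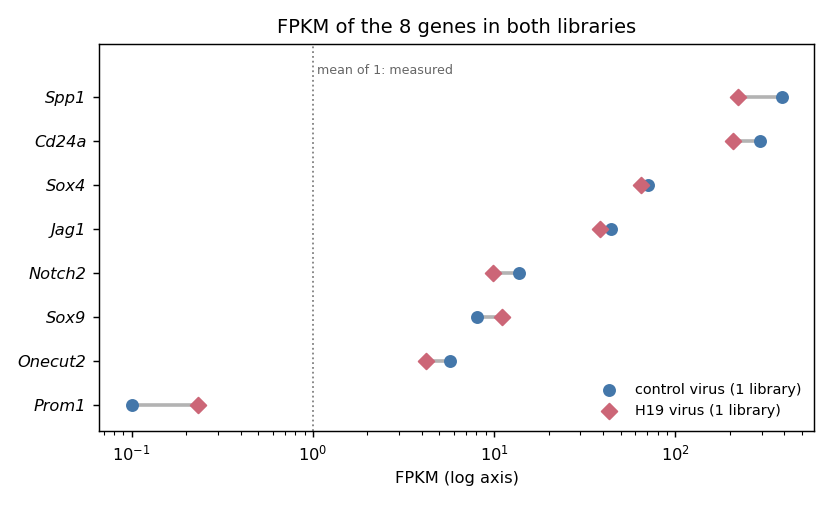
FPKM (log axis) of the 8 genes in the control library (blue circles) and the H19 library (red diamonds), 1 library each, ordered by mean level. Sox9 and Prom1 lie higher in the H19 library, the other 6 lie lower, and Prom1 lies below the mean of 1 FPKM marked by the dotted line.

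In both libraries levels ran from Prom1, the lowest, to Spp1, the highest. Spp1 and Cd24a were among the most abundant transcripts of these cells, above 99.2% and 98.98% of listed genes in the control library. Sox4 and Jag1 stood above 95.1% and 91.4% of genes, while Notch2, Sox9 and Onecut2 were at moderate levels, above 73.7%, 64.4% and 59.4%. In the control library the order of levels was Spp1, Cd24a, Sox4, Jag1, Notch2, Sox9, Onecut2 and Prom1. In the H19 library Notch2 stood below Sox9 and the rest of the order was the same. With no replicates, whether neighbours in this order differ beyond their spread could not be assessed.

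The 3 transcription factors did not go the same way. Sox9 (ENSMUSG00000000567, chromosome 11, 112782224 to 112787760, GRCm38), a protein-coding gene with 3 exons, was at 8.02 FPKM in the control and 11.1 FPKM in the H19 library. That is a ratio of 1.38 and a log2 difference of 0.42, and 17.9% of measured genes had a larger one. With the median of all genes set to 0 its log2 difference was 0.34, and with equal upper quartiles 0.30. Sox4 (ENSMUSG00000076431, chromosome 13, 28948919 to 28953713), a single-exon factor of the SoxC group that takes part in bile duct development together with Sox9, was at 71.0 and 65.0 FPKM. Its log2 difference was -0.13, with 29.3% of measured genes lower still. The locus deposited for Sox4 spans 10.7 kb, more than the 4.80 kb annotated, and the noncoding gene Gm26735 overlaps its exon on the opposite strand, so its reads may be shared. Onecut2 (ENSMUSG00000045991, chromosome 18, 64340020 to 64400987), a homeodomain factor that acts early in bile duct formation together with its relative Onecut1, was at 5.73 and 4.23 FPKM (log2 difference -0.36). Onecut1, named after its values were seen, was at 1.27 and 0.485 FPKM, a mean under 1.

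Ratios between genes of the same library do not depend on how the libraries were scaled to each other. The ratio of Sox9 to Spp1 was 0.0206 in the control against 0.0497 in the H19 library, 2.41 times as large. Against Cd24a, Notch2 and Onecut2 the Sox9 ratio was 1.95, 1.91 and 1.87 times as large in the H19 library. Against Jag1 and Sox4 it was 1.58 and 1.51 times as large. Relative to each of the other 6 measured members Sox9 was thus higher in the H19 library, most against Spp1 and least against Sox4. These ratios rest on the same FPKM values as the log2 differences and add no separate evidence.

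**Figure D2:**
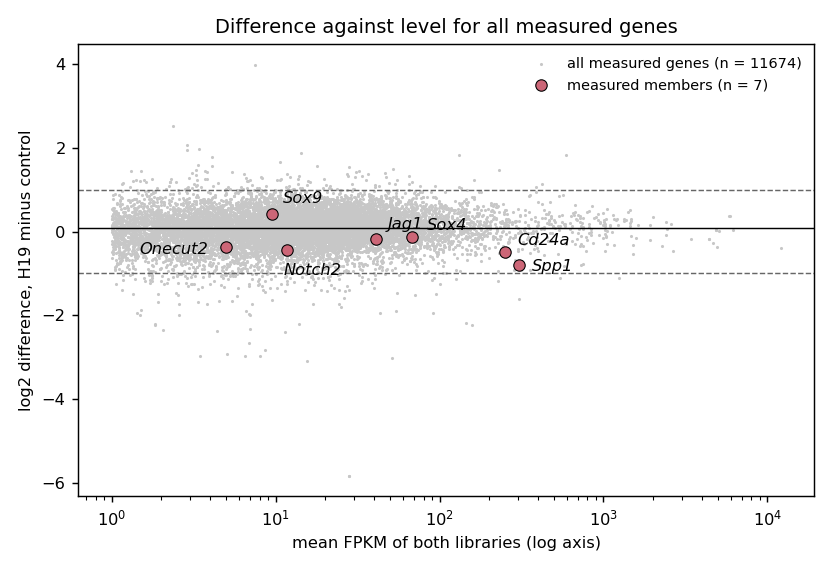
Log2 difference (H19 library minus control) against the mean FPKM of both libraries (log axis) for 11674 measured genes (grey), with the 7 measured members in red. The black line is the median of all measured genes (0.08), the dashed lines mark 2-fold, and all 7 members lie between them, Sox9 above the median line and the other 6 below it.

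Among SOX family genes, Sox9 was the only measured member that was higher. Of 19 family genes looked for, 7 had a value, 6 were measured and 12 were not analysed here. The other 5 measured genes were lower, at these and the 3 other scalings, with Sox9 higher in each. Among all measured genes 41.1% were lower, or 54.1% with equal upper quartiles. Sox6, which with Sox5 acts as a partner of SOX9 in cartilage, was at 3.19 and 1.95 FPKM (log2 difference -0.51), and Sox5 at 1.45 and 0.957 FPKM. Sox11, the SoxC relative of Sox4, was at 7.40 and 5.83 FPKM, and Sox13, of the same group as Sox5 and Sox6, at 4.20 and 3.75 FPKM. Sox4 made up most of the SOX transcripts, at 71.0 of a summed 95.3 FPKM in the control.

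Of 15 measured transcription factors of the hepatoblast and bile duct, Onecut2 among them, 11 were lower and 4 higher, with a median log2 difference of -0.15, and none passed 2-fold. Among all measured genes 41.1% were lower and 2.71% passed 2-fold. Foxa1, at 0.0359 and 0.444 FPKM and so not measured, has a log2 ratio of 3.63 in the authors' deposited table. The lowest was Hhex, which is needed for liver bud and bile duct growth, at 44.2 and 23.0 FPKM (-0.91). The highest was Gata6, a factor of endoderm, at 6.54 and 8.71 FPKM (0.37). Hnf4a, the main hepatocyte factor, was at 74.4 and 44.4 FPKM. Sox9 (8.02 to 11.1 FPKM) thus differed in the same direction as Gata6 and in the opposite one to Hhex and Hnf4a.

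**Figure D3:**
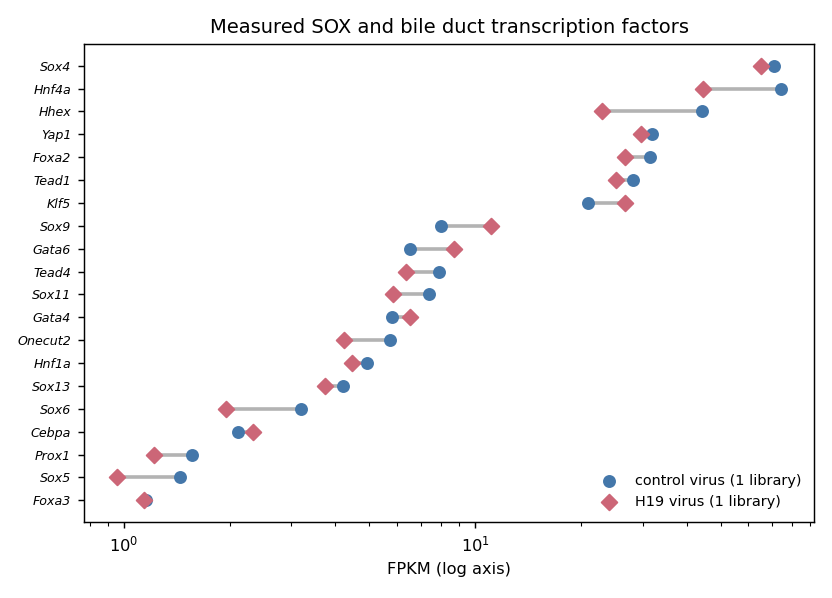
FPKM (log axis) of the measured SOX genes and of 14 measured factors of the hepatoblast and bile duct in the control (blue circles) and H19 library (red diamonds), 1 library each. Of the SOX genes, Sox9 alone has its diamond to the right of its circle, and Hhex (44.2 and 23.0) and Hnf4a (74.4 and 44.4) have the widest gaps among abundant factors.

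Spp1 had the largest difference in size of the 7 measured members. It encodes osteopontin, a secreted glycoprotein that bile duct cells and injured hepatocytes make and that binds integrins and CD44. Spp1 (ENSMUSG00000029304, chromosome 5, 104435118 to 104441050) was at 388.5 FPKM in the control and 222.5 FPKM in the H19 library. The control value was 1.75 times the H19 value, a log2 difference of -0.80, and 3.08% of measured genes had a lower one. Its rank among all listed genes went from 167 to 293. Krt19, a bile duct keratin, had nearly the same values, 382 and 219 FPKM, so that the ratio of Spp1 to Krt19 was 1.02 in both libraries. The gene model Gm42793, which shares exons with Spp1 on the same strand, was at 1.15 and 0.520 FPKM, far below Spp1.

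Of 11 integrin subunits and CD44 looked for as osteopontin receptors, 7 were measured, with a median log2 difference of -0.20. Lower values were seen for 6 of the 7, beside 41.1% of all measured genes. Itgb3, the beta chain of the classic osteopontin receptor, was at 7.99 and 3.32 FPKM (log2 difference -1.06) and was the only gene of the list past 2-fold. In the authors' deposited table Itgb3 has a log2 ratio of -1.27 and a q of 0.00092, from a test that the sources used here do not name. Its alpha partner Itgav was at 49.6 and 40.1 FPKM. The receptor Cd44 was at 105 and 70.3 FPKM (-0.58), so the ratio of Spp1 to Cd44 was 3.69 in the control against 3.16 in the H19 library. The beta chains Itgb1 (229 and 209 FPKM), Itgb5 (18.5 and 17.7 FPKM) and Itgb6 (8.73 and 7.50 FPKM) had log2 differences from -0.20 to -0.06. The alpha chain Itga5, at 8.90 and 9.14 FPKM, had a log2 difference of 0.04, which is below 0 with the median of all genes at 0, with TPM or with equal upper quartiles.

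The surface proteins Cd24a and Prom1 are used to sort liver progenitor cells, and their levels were far apart. Cd24a (ENSMUSG00000047139, chromosome 10, 43578284 to 43584265), a small lipid-anchored glycoprotein, was at 294 FPKM in the control and 208 FPKM in the H19 library. The log2 difference was -0.49, the second lowest of the 7, and 8.49% of measured genes were lower still. The ratio of Spp1 to Cd24a was 1.32 in the control against 1.07 in the H19 library. Prom1 (ENSMUSG00000029086, chromosome 5, 43993620 to 44102032), which encodes the membrane protein CD133, was at 0.10 and 0.232 FPKM. The number of reads behind these values is not known. The H19 value was 2.32 times the control value, yet the log2 difference with a pseudocount of 1 was 0.16, because both values are far under 1. An antisense gene, Gm16401, overlaps exons of Prom1 and was not analysed here. Of 4 other genes looked for as the prominin relative and as CD24 binding partners, 2 were measured: Siglecg, a receptor that binds CD24, at 2.27 and 3.09 FPKM, and the kinase Lyn at 6.16 and 6.27 FPKM.

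Receptor and ligand of the Notch pathway were both lower in the H19 library, by less than 1.5-fold. Notch2 (ENSMUSG00000027878, chromosome 3, 98013527 to 98150361), the receptor that directs bile duct formation, was at 13.7 and 9.89 FPKM. Its log2 difference was -0.44, and 10.4% of measured genes were lower still. Jag1 (ENSMUSG00000027276, chromosome 2, 137081456 to 137116644), its ligand and the gene mutated in most people with Alagille syndrome, was at 43.96 and 38.5 FPKM. Its log2 difference was -0.19, and 24.1% of measured genes were lower still. Jag1 was 3.20 times the level of Notch2 in the control and 3.89 times in the H19 library.

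These were the main receptor and ligand of the cells. Notch1 was at 7.11 and 6.55 FPKM, so Notch2 was 1.93 times as high in the control and 1.51 times in the H19 library. Notch3 (0.0276 and 0.0444 FPKM) and Notch4 (0.396 and 0.306 FPKM) were not measured. Jag2 was at 2.79 and 1.95 FPKM, so Jag1 was 15.8 and 19.8 times as high, and the Delta-like genes Dll1, Dll3 and Dll4 had mean levels of at most 0.116 FPKM. The canonical targets showed little difference. Hes1, the repressor that Notch switches on in many tissues, was at 28.5 and 27.8 FPKM and Hey1 at 1.45 and 1.46 FPKM, with log2 differences of -0.03 and 0.01. Of the remaining targets looked for, Hey2, Heyl and Nrarp had mean levels of at most 0.179 FPKM, and Hes5 was not analysed here.

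Over all 7 roles of the pathway, 42 of 56 genes were measured, of which 27 were lower and 15 higher, with a median log2 difference of -0.16 and 1 past 2-fold. Among all measured genes 41.1% were lower and 2.71% past 2-fold. With equal upper quartiles 32 of the 42 were lower, beside 54.1% of all measured genes. Of 9 measured genes for proteins that cut the receptor 7 were lower (8 at each other scaling), with a median of -0.35, from Aph1b, a gamma-secretase subunit, at 5.93 and 3.43 FPKM to Psenen, another subunit, at 48.2 and 55.2 FPKM. The 4 measured genes for enzymes that add sugars to the receptor were all higher, at each of the 4 scalings, with a median of 0.25. They ran from Pofut1, which adds the first fucose, at 9.97 and 11.5 FPKM to the fringe gene Rfng at 7.23 and 10.5 FPKM (log2 difference 0.48). Of 14 measured genes for endocytosis and turnover, 10 were lower, with a median of -0.32. Among them Dtx3l, a ubiquitin ligase of the Deltex family that is also induced by interferon, was at 3.58 and 1.16 FPKM (-1.08), with a q of 0.00162 in the authors' deposited table, and Mib2, which drives ligand uptake, was at 15.6 and 22.6 FPKM. The 9 measured nuclear factors had a median of -0.06, with 5 lower, or 8 with equal upper quartiles, and the highest was Snw1, a coactivator and splicing factor, at 33.0 and 38.7 FPKM.

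**Figure D4:**
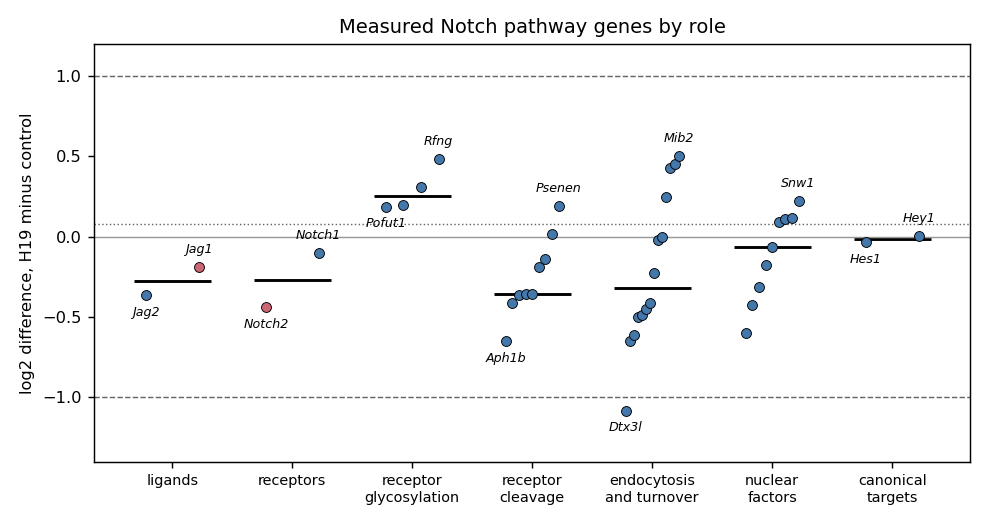
Log2 difference (H19 library minus control) of each measured Notch pathway gene by role, with the 2 members in red, the median of each role as a black bar, the median of all measured genes (0.08) as a dotted line and 2-fold as dashed lines. The 4 receptor glycosylation genes lie above 0, the measured ligands and receptors lie below it, and Hes1 and Hey1 lie at -0.03 and 0.01.

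Marker lists set these values beside the identity of the cells. Of 32 cholangiocyte markers, which hold none of the 8 genes, 21 were measured, with a median log2 difference of -0.36. Of the 21, 15 were lower, beside 41.1% of all measured genes. With a pseudocount of 1, 3 of the 21 were past 2-fold in the lower direction, beside 1.57% of all measured genes. Those 3 were Krt7, a bile duct keratin, at 39.7 and 10.6 FPKM (-1.81), Atp1b1, a sodium pump subunit, at 22.4 and 9.23 FPKM, and Bicc1, an RNA-binding protein whose loss gives cystic kidneys in mice, at 50.9 and 22.8 FPKM. The highest difference was that of Dcdc2a, a protein of cilia, at 0.907 and 2.71 FPKM (0.96), followed by Slc10a2, a bile acid transporter, at 3.19 and 6.76 FPKM (0.89). Both are past 2-fold in the authors' deposited table, with log2 ratios of 1.58 (q 0.00916) and 1.08 (q 0.0422). The authors' deposited table also lists Krt7, Atp1b1 and Bicc1, the integrin gene Itgb4 (log2 ratio -1.13) and the water channel gene Aqp1 (log2 ratio -3.31), each lower. Epcam (0.0186 and 0.0385 FPKM), a defining marker of bile duct epithelium, was close to 0, and Cftr was not analysed here. So the cells held high levels of Krt19, Spp1 and Cd24a and almost no Epcam or Prom1. Of 23 other progenitor markers 11 were measured, 6 lower (8 with equal upper quartiles) and 5 higher, with a median of -0.01, between Cd44 (-0.58) and the galectin gene Lgals3 at 168 and 256 FPKM (0.61).

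Hepatocyte markers were for the most part low in these cells, which are labelled hepatocytes. Of 24 looked for, 5 were measured, and the defining markers Alb, which encodes albumin, at 0.990 and 0.178 FPKM and Ttr at 0.785 and 0.290 FPKM were not among them, while Apob was at 108 and 104 FPKM. Lower values were seen for 4 of the 5, beside 41.1% of all measured genes, and the median log2 difference was -0.54. The 5 ran from Serpina1a, whose reads may be shared with near-identical serpin genes, at 2.12 and 0.192 FPKM (-1.39), to the factor Cebpa at 2.11 and 2.34 FPKM (0.10). The summed FPKM of the list was 371 in the control against 277 in the H19 library, and that of the cholangiocyte list 1651 and 1238. The highest levels on the hepatocyte list were those of Trf (182 and 125 FPKM), Apob and Hnf4a. Of markers of other liver cells, 1 of 12 stellate cell genes (Des, at 3.43 and 0.893 FPKM), 2 of 10 endothelial genes (Stab1 at 3.22 and 3.95 FPKM, Esam at 1.48 and 1.72 FPKM) and 3 of 11 macrophage and leukocyte genes were measured. Of the last, Cd14, found on hepatocytes too, had 125 and 62.4 FPKM. Lyz2 had 1.68 and 0.412 FPKM, and the values of Cd68 were 2.75 and 0.928. The summed FPKM of these lists were 4.17 and 1.47, 5.18 and 5.997, and 130.1 and 64.5. The part of other cells in the differences was not tested, and in bulk RNA fewer cells of a type and less RNA per cell cannot be told apart.

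**Figure D5:**
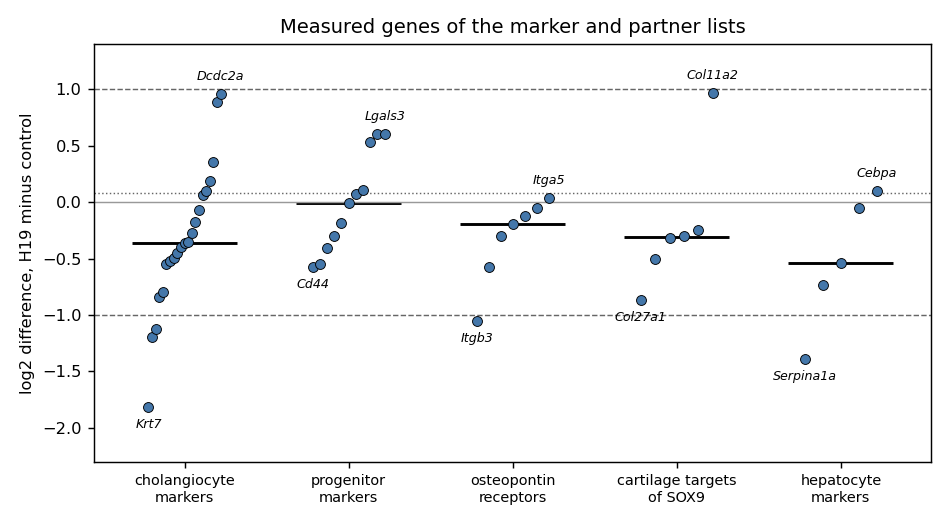
Log2 difference (H19 library minus control) of each measured gene of 5 lists, with the median of each list as a black bar, the median of all measured genes (0.08) as a dotted line and 2-fold as dashed lines. Krt7 (-1.81) is the lowest cholangiocyte marker. The medians of all 5 lists lie below 0: hepatocyte (-0.54), cholangiocyte (-0.36), cartilage target (-0.31), osteopontin receptor (-0.20) and progenitor (-0.01).

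Genes known as SOX9 targets in cartilage did not follow Sox9 as a group. Of 18 looked for, 6 were measured, 5 of them lower (beside 41.1% of all measured genes), with a median log2 difference of -0.31. The exception was Col11a2, a cartilage collagen gene, at 0.750 and 2.42 FPKM (0.97), which has a log2 ratio of 1.69 and a q of 0.0033 in the authors' deposited table. The lowest was Col27a1, another such collagen gene, at 12.1 and 6.14 FPKM (-0.87). Sox5 and Sox6 are on this list too, while the cartilage genes Col2a1 (0.0784 and 0.269 FPKM) and Acan (0.0537 and 0 FPKM) were not measured.

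None of the 8 genes is among the 561 in the authors' deposited table of differences, whose smallest finite log2 ratio is 1.00 in size and whose highest q is 0.0496. Of the 8, only Prom1 had a log2 ratio of that size without a pseudocount, 1.22, at levels of 0.10 and 0.232 FPKM. The genes closest to Sox9 in both libraries, by distance over log2(FPKM + 1), were Plk4, the kinase that starts centriole duplication, at 8.02 and 11.1 FPKM, Malsu1, a mitochondrial ribosome assembly factor, at 7.96 and 11.1 FPKM, and Dph1, which acts in diphthamide synthesis, at 8.02 and 10.9 FPKM. With only 2 libraries 68 measured genes lay within 0.1 of Sox9 on that scale, so such closeness is common.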

How the data were processed

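Messenger RNA of 2 AML12 lines was sequenced, 1 library per line. Per the submitters' processing notes, CASAVA 1.4, TopHat2 and mouse build mm9 were used; which program computed expression, and whether it used strand, is not given in these sources. Per the file headers, the authors deposited FPKM per gene, and the authors' deposited table of differences gives a log2 ratio, a p-value and a q-value. Of the gene identifiers, 21017 are in GENCODE mouse release M21, and 99.95% of their deposited loci overlap the GRCm38 position, so annotation is on GRCm38.

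Log2 differences used a pseudocount of 1, and counts and medians took genes whose mean FPKM reached 1. No test was run. The depth of the libraries is unknown, since FPKM hold no read totals. The steps were tested on simulated data with control values of at least 5 FPKM and planted changes larger than that of any measured member. This test does not cover lower levels or smaller differences. Other settings tried were smaller pseudocounts (0.1, 0.01), other filters (none, or a mean of at least 5), 3 other scalings, the tables of single libraries, and 1.5-fold or 3-fold rules. Means of the lists were also taken in place of medians. The members and the 19 lists were chosen with earlier results of these data known. Named were the 8 members, H19, each measured Notch receptor, ligand and target, SOX gene and osteopontin receptor, of each other list the highest, the lowest and any gene past 2-fold, and the 3 genes nearest to Sox9; other genes were named as defining markers or after their values were seen. The values of 2 listed genes are not reported here. Scripts ran in Python 3.11.15 with pandas 2.3.3, numpy 2.4.6 and, for plots, matplotlib 3.10.9.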

Additional observations from a re-analysis of the deposited data

How the results depend on the processing

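Over 63 recomputed member values, from pseudocounts, filters, scalings and the per-library tables, each member kept its sign. Only the scalings could have changed it. A pseudocount cannot turn a sign, a filter does not alter a value, and the per-library tables hold the same member values. Sox9 ranged from 0.30 to 0.46, Spp1 from -0.93 to -0.80 and Prom1 from 0.08 to 1.14, the last with a pseudocount of 0.01. With a 1.5-fold rule 1 of the 7 measured members, Spp1, was past it. Beside it, 1050 genes higher and 725 lower of the 11674 measured genes were past that rule too. With the 2-fold rule no measured member was, at any setting. Counts over all genes, 133 higher and 183 lower, were 275 and 316 with a pseudocount of 0.1, 295 and 341 with 0.01, 86 and 113 with a mean of at least 5, 1050 and 725 with a 1.5-fold rule and 11 and 42 with a 3-fold rule. They were 192 and 346 with TPM, 84 and 270 with equal upper quartiles and 90 and 238 with the median at 0. Of 160 recomputed list values, which include list means taken in place of medians, 153 kept their sign and moved by less than 1.5-fold. The per-library tables gave the same list medians and so could not move them. The stellate list, whose only measured gene is Des, had a median of -1.83 and -1.93 with the smaller pseudocounts, and of -0.0302 with no filter, where its low genes count too. The macrophage list moved to -1.56 with a pseudocount of 0.01 and, with its low genes counted, to -0.22. With a mean of at least 5 the Notch nuclear factors moved to 0.0151 and the progenitor markers to 0.11. No replicate could be left out, and no paired analysis was possible because each group has 1 library. Depth is unknown, which limits most the value of Prom1.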

Other observations

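The nearest measured genes on either side of the members, a choice made after the data were seen, differed both with and against them. The closest to Sox9 above it on chromosome 11 was the noncoding gene 2610035D17Rik, 256 kb away, at 1.12 and 1.64 FPKM, higher like Sox9 but close to the limit for measured genes. Below Sox9 the nearest measured gene was Kcnj16, a potassium channel gene 1754 kb away, at 23.4 and 4.30 FPKM (log2 difference -2.20). Next to Spp1, Pkd2 at 18.4 kb was at 9.49 and 9.98 FPKM and Nudt9 at 370 kb was at 18.6 and 18.8 FPKM, while Spp1 was at 388.5 and 222.5 FPKM. Next to Notch2, Phgdh, the first enzyme of serine synthesis, at 163 kb, was at 326 and 518 FPKM, and Sec22b, a vesicle transport gene, at 90.3 kb, at 20.9 and 27.5 FPKM, both higher where Notch2 was lower. Slx4ip, 9.51 kb from Jag1, was at 2.55 and 3.29 FPKM, and Btbd3, 1140 kb to the other side, at 7.79 and 7.72 FPKM. Next to Sox4, Cdkal1 at 238 kb was lower like Sox4, at 8.26 and 7.22 FPKM, and 2610307P16Rik at 63.3 kb was higher, at 3.10 and 3.87 FPKM. Wdr7, 350.2 kb from Onecut2, was lower like it, at 11.8 and 9.60 FPKM, and the pseudogene Amd-ps3 at 47.7 kb was higher, at 2.64 and 4.01 FPKM. Next to Cd24a, 1700021F05Rik had 16.5 and 18.0 FPKM and Qrsl1 5.48 and 5.82 FPKM. Next to Prom1, Fgfbp1, which releases fibroblast growth factors from the matrix, at 11.8 kb, was at 11.7 and 6.74 FPKM (log2 difference -0.71), and Gm42429 at 32.4 kb had 8.77 and 8.58 FPKM.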
